A study of Mus musculus with 8 samples.

Results

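The genes described here are 32 genes of pan-endothelial identity, that is, genes which blood vessel lining cells express in most organs. They were followed in the brain cortex of mouse embryos at E16 (embryonic day 16). They were chosen by name, and a gene counted as measured when the array's annotation gave at least 1 probe set to it and to no other gene. All 32 of 32 were measured, each by 1 probe set, among 19938 genes measured in all. The labels give 4 control arrays of wild-type embryos and 4 arrays of GFAP-tTA: TetO-VEGF-A164 bitransgenic embryos, labelled as having induced overexpression of VEGF, all on a mixed strain background. In these embryos a tetracycline-controlled transactivator (tTA), driven by the promoter of Gfap, a gene of astrocytes and radial glia, acts on a TetO-linked transgene for the VEGF-A164 isoform. The controls are said to lack the TetO transgene, and the labels do not say whether any of them carried GFAP-tTA. The effect of VEGF-A164 therefore cannot be told apart from that of the transactivator or of the transgene insertions. The labels also do not say whether an array holds 1 embryo or a pool. The p-values then reflect only how far these 8 arrays differ among themselves, which may be technical.

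Endothelial cells keep their identity through a small network of transcription factors. ETS family members such as ERG, FLI1 and ETS1, the SoxF factors SOX7, SOX17 and SOX18, and the basic helix-loop-helix factors TAL1 and LYL1 drive genes for junctions, surface receptors and vessel-specific enzymes. VEGF-A is the main growth factor of these cells, and in the embryonic cortex vessels grow inward from a plexus in the meninges. The comparison asks whether the transcripts that mark endothelium differ in a cortex labelled as overexpressing VEGF-A.

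The deposited values were taken as log2, and every probe set has a median of about 0 across the 8 arrays. A value therefore says how far an array lies from that middle, not how abundant a transcript is, and the labelled tissue could not be checked against the levels of its markers. Arrays carry their group's name and number below. Array medians lay between -0.0091 and 0.015, and their number limits the precision. The sex-linked genes gave a female pattern in control 3, VEGF 2 and VEGF 3 and a male pattern in the other 5 arrays. Vegfa did not mark the transgenic arrays. It lay at -0.10, 0.036, -0.12 and 0.026 in control arrays 1 to 4 and at 0.059, 0.078, -0.026 and -0.055 in VEGF arrays 1 to 4, so the groups overlapped (difference 0.053, SE 0.0506, adjusted p = 0.748). It is not known here if this probe set can read the transgene, and the arrays are called VEGF-labelled for that reason.

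No pan-endothelial gene differed between the groups past the test, and the set was spread around 0. Of the 32 genes, 14 lay above control and 18 below, which is 43.8% above, beside 43.3% of all genes. Their median difference, VEGF-labelled minus control, was -0.014, beside a median of -0.010 over all genes. In 29 of the 32 the difference was smaller than 0.1 on the log2 scale. No gene of the set passed limma's adjusted p of 0.05, and neither did any of the 19938 genes (0%). At an unadjusted limma p under 0.05, 0 members were higher and 1, Sox7, was lower, while 4.62% of all genes were higher and 7.84% lower. In no member did the groups fail to overlap, beside 6.84% of all genes, 2.13% higher and 4.71% lower without overlap. The 95% intervals of the limma fit bound what 4 arrays a group leave possible. The upper bound was under 0.25 for all 32 genes and was highest for Emcn, at 0.25, or 1.19-fold. The lower bound was -0.44 for Sox7 and no lower than -0.33, or 0.795-fold, for the other 31. In whole tissue, fewer endothelial cells and less of a transcript per cell cannot be told apart.

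**Figure D1:**
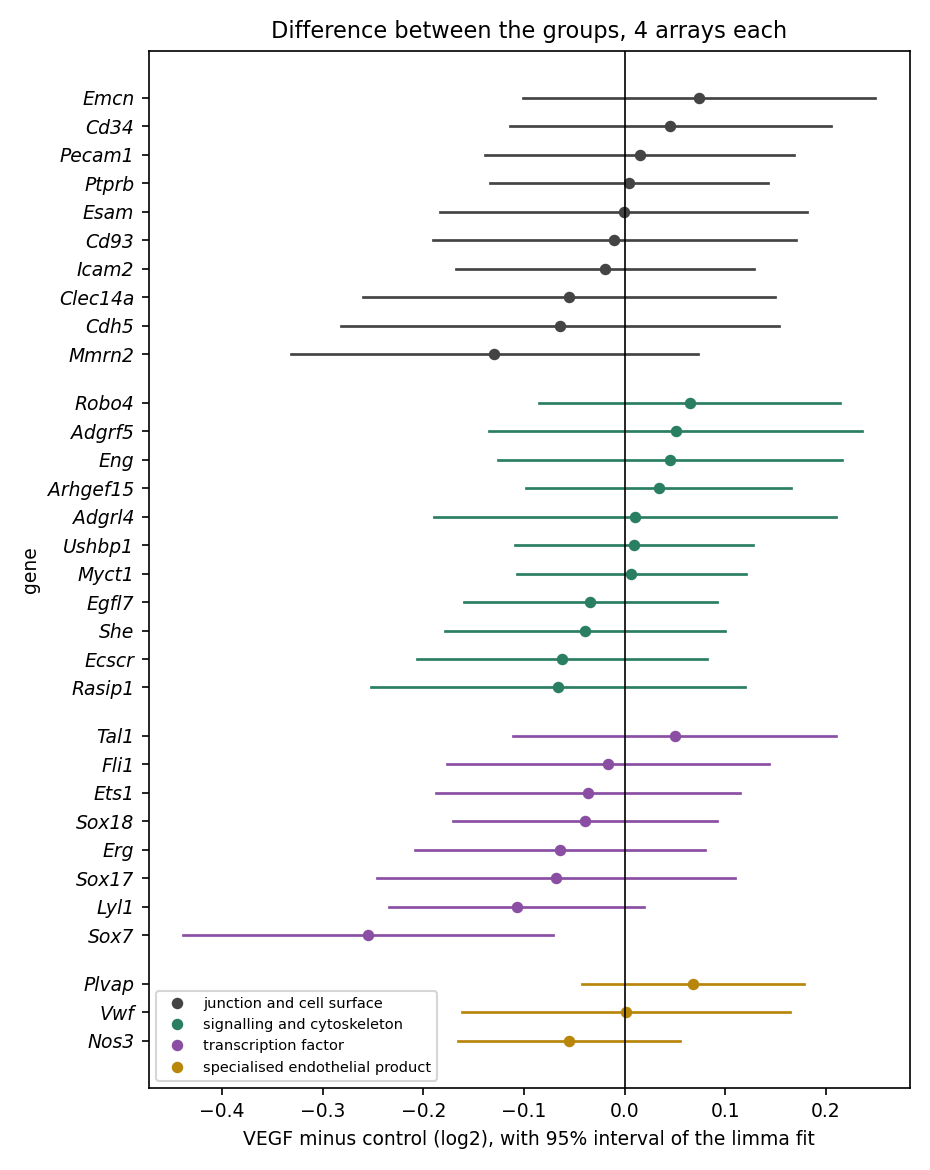
Difference of each of the 32 genes, VEGF-labelled minus control (x axis, log2), by role (colours); points are the differences and lines the 95% intervals of the limma fit over 4 arrays a group. The interval of Sox7, from -0.44 to -0.071, is the 1 that does not cross 0; the other 31 do.

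What varied was the array, in both groups alike. The mean over the 32 genes was 0.016, 0.095, -0.12 and 0.028 in control arrays 1 to 4. It was 0.019, 0.023, -0.13 and 0.029 in VEGF-labelled arrays 1 to 4. Control 3 and VEGF 3 thus lay well below the other 6 arrays, whose means spanned 0.079, and the group means were 0.0041 ± 0.091 and -0.016 ± 0.079 (SD, n = 4 each). Both low arrays were of female pattern, as was VEGF 2, which lay at 0.023. With a sex index, Xist minus the Y-linked genes, as a covariate, 18 of the 32 genes lay above control and 14 below. Their median difference was then 0.013, beside -0.0051 over all genes. The part of sex in the low values was not tested. In control 3, 30 of the 32 genes lay below 0, and in VEGF 3, 29 did, while 51.2% and 58.0% of all genes lay below 0 on those arrays. Control 3 and VEGF 3 were the lowest 2 arrays in 22 of the 32 genes, beside 5.62% of all genes. Control 2 lay at the other end, with 29 of 32 genes above 0 and the highest value of all 8 arrays in 13. That array was high for other genes too, with 34.9% of all genes below 0 and the highest value in 24.4%. Without control 3 and VEGF 3 the group means of the set were 0.046 and 0.023. The order of the groups was therefore the same with both of those arrays and without both. It turned when VEGF 3 alone was left out, with means of 0.0041 in control and 0.023 in the VEGF-labelled group. Without control 3 alone the means were 0.046 and -0.016.

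**Figure D2:**
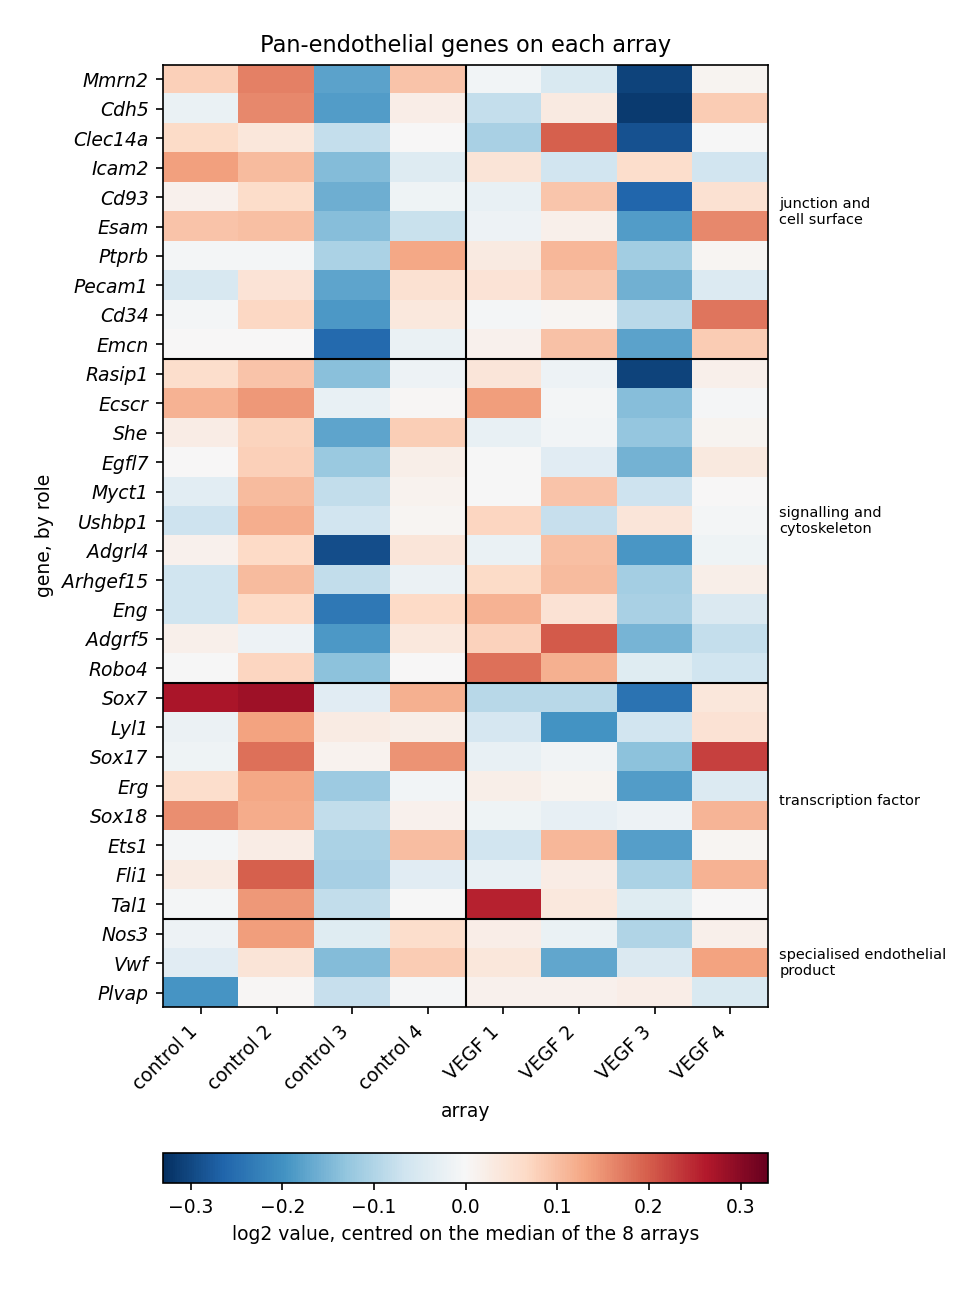
Value of each of the 32 genes (rows, grouped by role) on each of the 8 arrays (columns), as colour on the centred log2 scale. The columns of control 3 and VEGF 3 are blue in most rows, with 30 and 29 of 32 genes below 0, while no row separates the 4 control arrays from the 4 VEGF-labelled ones.

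Junction and cell surface genes differed little between the groups, with 4 of 10 above control, 6 below and none past the test. Pecam1, the platelet endothelial adhesion molecule CD31, is the usual stain for vessels. It lay at -0.053, 0.046, -0.17 and 0.051 in control arrays 1 to 4 and at 0.045, 0.090, -0.16 and -0.045 in VEGF-labelled arrays 1 to 4. The lowest array of each group was the one numbered 3, the groups overlapped almost fully, and the difference was 0.015 with an SE of 0.0681 (limma, adjusted p = 0.961). Cdh5, the VE-cadherin of adherens junctions, lay at -0.021, 0.16, -0.18 and 0.021 in control and at -0.079, 0.029, -0.32 and 0.084 in the VEGF-labelled arrays. Its low arrays were the same, and it differed by -0.064 with an SE of 0.0962 (limma, adjusted p = 0.859).

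Mmrn2, a matrix protein that binds CLEC14A and CD93 on the endothelial surface, had the most negative difference among the surface genes. It lay at 0.079, 0.17, -0.18 and 0.094 in control and at -0.010, -0.049, -0.30 and 0.010 in the VEGF-labelled arrays. Here 3 control arrays lay above all 4 VEGF-labelled ones and control 3 lay among them, for a difference of -0.13 with an SE of 0.0895 (limma, adjusted p = 0.623). Without control 3 its difference was -0.20 (adjusted p = 0.321), and without VEGF 3 it was -0.057 (adjusted p = 0.862). Its binding partners Clec14a and Cd93, both C-type lectin-like receptors, differed by -0.055 and -0.010.

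Emcn, the sialomucin endomucin of venous and capillary endothelium, had the highest difference among all 32 genes. It lay at 0 to 4 decimals in control 1 and control 2, at -0.26 in control 3 and at -0.021 in control 4, and at 0.015, 0.10, -0.18 and 0.083 in the VEGF-labelled arrays. The difference of 0.074, with an SE of 0.0774, did not pass (limma, adjusted p = 0.778). Without control 3 it was 0.012 (adjusted p = 0.967), and without VEGF 3 it was 0.13 (adjusted p = 0.576). The sialomucin Cd34, which blood progenitors also carry, differed by 0.045, the tight junction protein gene Esam by -0.00096, the adhesion molecule Icam2 by -0.020 and Ptprb, the endothelial receptor phosphatase VE-PTP, by 0.0046.

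Signalling and cytoskeletal genes lay on both sides of control, 7 of 11 above and 4 below, and none passed the test. Robo4, a guidance receptor of endothelium, was highest among them. It lay at -0.00040, 0.071, -0.14 and 0.00040 in control and at 0.18, 0.12, -0.039 and -0.066 in the VEGF-labelled arrays. VEGF 1 and VEGF 2 lay above all control arrays and the others within them, for a difference of 0.065 with an SE of 0.0664 (limma, adjusted p = 0.774). Rasip1, an effector of small GTPases needed for vessel lumens, lay at 0.059, 0.094, -0.14 and -0.016 in control and at 0.039, -0.018, -0.30 and 0.016 in the VEGF-labelled arrays. VEGF 3 stood far below the rest, and the difference was -0.067 with an SE of 0.0823 (limma, adjusted p = 0.824). Ecscr, an endothelial surface regulator of chemotaxis, lay at 0.12, 0.14, -0.024 and 0.0026 in control and at 0.14, -0.0064, -0.14 and -0.0026 in the VEGF-labelled arrays, and differed by -0.062 (SE 0.0638, limma, adjusted p = 0.773). VEGF 1 lay beside the high controls and VEGF 3 lowest of all, so the groups overlapped.

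The other genes of this role stayed within 0.06 of control. Eng, the TGF-beta co-receptor endoglin, differed by 0.045, and the secreted factor Egfl7, host of a well-known endothelial microRNA, by -0.034. The adhesion G protein-coupled receptors Adgrf5 and Adgrl4 differed by 0.051 and 0.010, and Arhgef15 by 0.034. The adaptor gene She differed by -0.039, Myct1 by 0.0067 and Ushbp1 by 0.0094.

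Transcription factors were the role with the most genes below control, 7 of 8, with a median difference of -0.052 beside -0.010 over all genes. None passed over all genes, and this split was not tested. Erg, an ETS factor that maintains endothelial junctions, lay at 0.058, 0.13, -0.12 and -0.0098 in control and at 0.019, 0.0098, -0.18 and -0.046 in the VEGF-labelled arrays. Its groups overlapped, and it differed by -0.064 with an SE of 0.0637 (limma, adjusted p = 0.764). The other ETS factors, Fli1 and Ets1, differed by -0.017 and -0.036.

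Among the SoxF factors Sox7 had the most negative difference. It lay at 0.27, 0.28, -0.037 and 0.12 in control and at -0.092, -0.091, -0.24 and 0.037 in the VEGF-labelled arrays. Control 3 lay below VEGF 4, and apart from that pair every control array lay above every VEGF-labelled one. The group means were 0.16 ± 0.15 and -0.10 ± 0.11 (SD, n = 4 each). VEGF-labelled minus control came to -0.25 (SE 0.0813, 95% interval -0.44 to -0.071), which is 0.838-fold. The unadjusted limma p was 0.0119 and the adjusted p over all genes was 0.282, so the difference did not pass. Over all the alternatives run it stayed between -0.32 and -0.21, and the adjusted p between 0.153 and 0.637.

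Sox17, a SoxF factor of arterial endothelium, lay at -0.014, 0.18, 0.011 and 0.15 in control and at -0.026, -0.011, -0.13 and 0.23 in the VEGF-labelled arrays. Both groups held high and low arrays, and the difference was -0.068 with an SE of 0.0787 (limma, adjusted p = 0.805). Sox18, which acts in vascular and lymphatic development, lay at 0.15, 0.12, -0.082 and 0.015 in control and at -0.015, -0.028, -0.018 and 0.11 in the VEGF-labelled arrays. It differed by -0.039 with an SE of 0.0582 (limma, adjusted p = 0.857). The 95% intervals of Sox17, from -0.25 to 0.11, and of Sox18, from -0.17 to 0.092, overlapped that of Sox7. Whether Sox7 differed from Sox17 and Sox18 in its response was not tested.

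Relative to the mean of the other members, the groups of 1 gene, Sox7, did not overlap. That count is near the share over other genes given below, so it does not set Sox7 apart. Sox7 minus the mean of the other 31 genes was 0.26, 0.19, 0.088 and 0.093 in control and -0.11, -0.12, -0.11 and 0.0087 in the VEGF-labelled arrays. The group means of that relative value were 0.16 ± 0.083 and -0.084 ± 0.062 (SD, n = 4 each). Of the 32 genes, 1 was lower without overlap on this relative scale and 0 were higher, beside 2.15% and 0.407% of the 19906 other genes set against the mean of the 32. The relative scale was tried after Sox7's values were seen and carries no test. With the mean of the other endothelial genes described further on as a covariate, an alternative added after seeing the data, Sox7 differed by -0.21 (limma, adjusted p = 0.224).

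**Figure D3:**
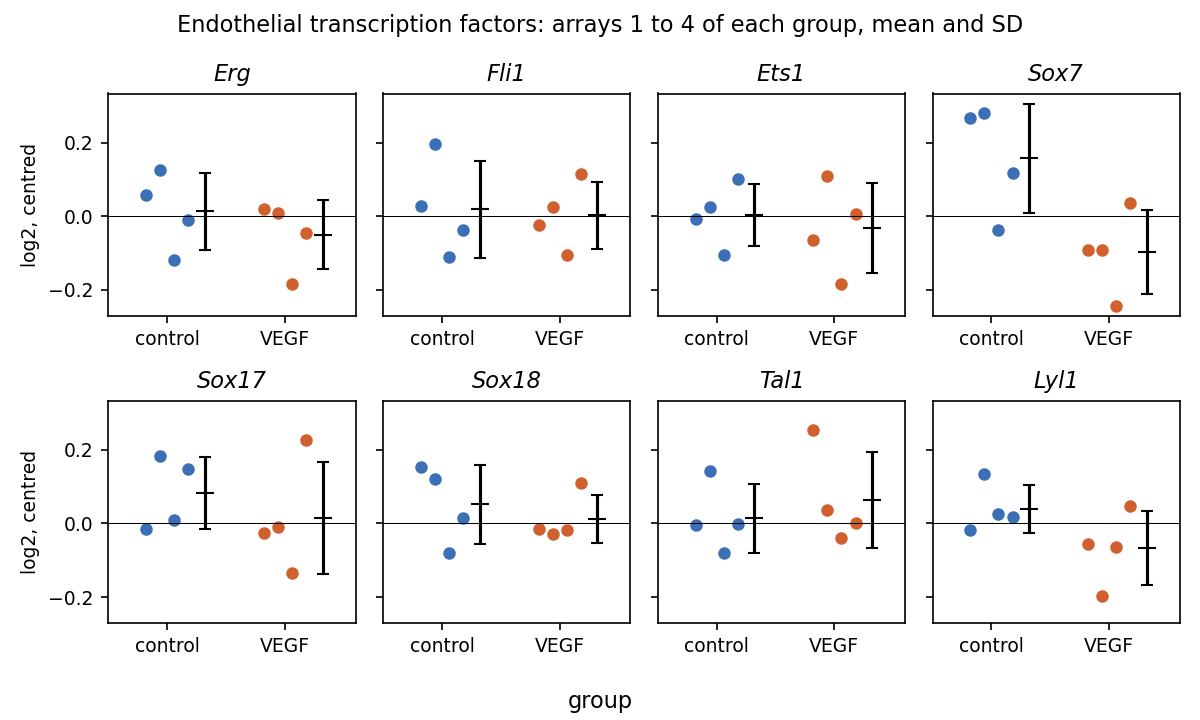
Values of the 8 endothelial transcription factors (y axis, centred log2) on arrays 1 to 4 of the control and VEGF-labelled groups (x axis); points are arrays in replicate order, and bars are the group mean with SD, n = 4. In Sox7 the means are 0.16 and -0.10 with 1 control array below 1 VEGF-labelled array, while the groups overlap widely in Erg, Fli1 and Ets1.

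Tal1 and Lyl1 are basic helix-loop-helix factors that blood cells and endothelium share, and neither passed the test. Tal1 lay at -0.0052, 0.14, -0.081 and -0.0024 in control and at 0.25, 0.035, -0.039 and 0.0024 in the VEGF-labelled arrays, a difference of 0.050 (SE 0.0711, limma, adjusted p = 0.850). Its highest array was VEGF 1, where the mean of the erythroid genes was also highest, at 0.57, and the part of red cell RNA in Tal1 was not tested. Lyl1 lay at -0.018, 0.13, 0.026 and 0.018 in control and at -0.056, -0.20, -0.064 and 0.047 in the VEGF-labelled arrays. VEGF 2 was its lowest array and VEGF 4 lay within the control range, for a difference of -0.11 with an SE of 0.0561 (limma, adjusted p = 0.485). Without VEGF 2 the difference was -0.064 (adjusted p = 0.682), and without VEGF 4 it was -0.15 (adjusted p = 0.271).

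Genes of specialised endothelial products did not separate the groups. Plvap, a diaphragm protein of fenestrated and immature vessels that brain endothelium loses as its barrier forms, lay at -0.19, 0.0051, -0.077 and -0.0051 in control. In the VEGF-labelled arrays it lay at 0.015, 0.015, 0.022 and -0.051. VEGF 1 to 3 lay just above the control range and VEGF 4 within it. The difference was 0.068 with an SE of 0.0488 (limma, adjusted p = 0.640), and without control 1 it was 0.026 (adjusted p = 0.900). Nos3, the endothelial nitric oxide synthase, lay at -0.017, 0.14, -0.040 and 0.058 in control and at 0.021, -0.021, -0.10 and 0.017 in the VEGF-labelled arrays. Control 2 was highest and VEGF 3 lowest, and the difference was -0.055 (SE 0.0488, limma, adjusted p = 0.725). Vwf, the clotting factor stored in endothelium and platelets, lay at -0.037, 0.044, -0.14 and 0.084 in control and at 0.037, -0.17, -0.048 and 0.13 in the VEGF-labelled arrays, a difference of 0.0013 (SE 0.0721, limma, adjusted p = 0.996). Its lowest array was VEGF 2 and its highest VEGF 4, so the control arrays lay within the VEGF-labelled range.

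The 32 genes went up and down together across the arrays. Over their 496 pairs the median Pearson r across the 8 arrays was 0.575, and 57.5% of pairs were above 0.5, beside a median of 0.034 and 16.9% over all pairs of genes. With the group means removed the median was 0.627, so the shared variation lay within the groups. These correlations are descriptions, since the genes were measured on the same 8 arrays and share each array's tissue and RNA. Likeness was highest among the junction and surface genes (median r 0.696 over 45 pairs) and the signalling genes (0.671 over 55 pairs), and lower among the transcription factors (0.508 over 28 pairs) and the specialised products (0.153 over 3 pairs). Much of it rested on control 3 and VEGF 3. Without both arrays, an alternative chosen after seeing the data, the median r over the remaining 6 arrays was 0.153, beside 0.033 over all pairs of genes, and 23.8% of pairs were above 0.5, beside 21.7%.

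Single genes followed the rest to different degrees. Egfl7 was most like the mean of the other 31 (r = 0.969 over the 8 arrays), followed by Cdh5 (0.935), Mmrn2 (0.927), She (0.922) and Erg (0.913). In all, 27 of the 32 genes had an r above 0.5. The 5 that did not were Vwf (0.468), Icam2 (0.312), Ushbp1 (0.287), Lyl1 (0.213) and Plvap (0.0012). Without control 3 and VEGF 3, 11 of 32 were above 0.5, among them Nos3 at 0.897, Egfl7 at 0.825, Cdh5 at 0.797 and Fli1 at 0.788. Ushbp1 at 0.682 and Lyl1 at 0.606 were among those 11 although they lay under 0.5 on 8 arrays. Emcn went from 0.83 to -0.29, Ptprb from 0.690 to -0.39 and Adgrf5 from 0.627 to -0.42.

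**Figure D4:**
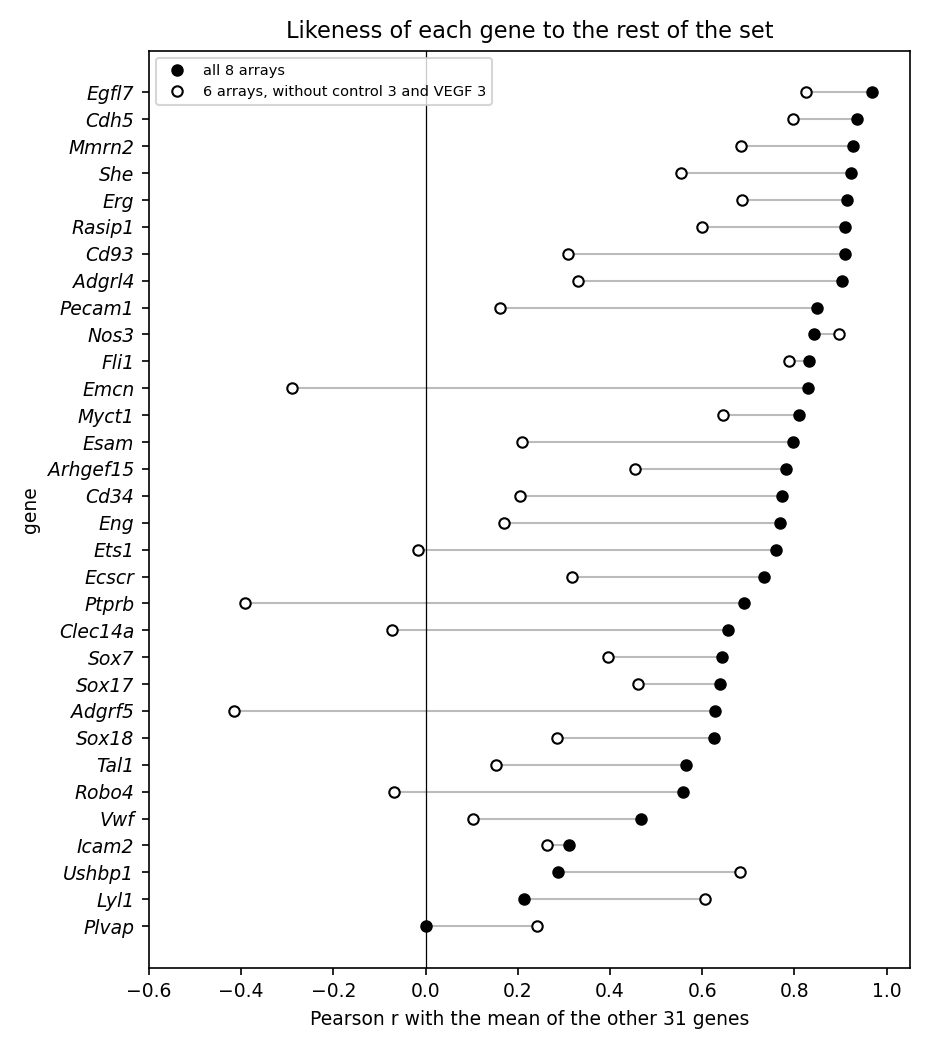
Pearson r of each gene with the mean of the other 31 (x axis) over all 8 arrays (filled points) and over the 6 arrays other than control 3 and VEGF 3 (open points). On 8 arrays 27 of 32 genes lie above 0.5, and on 6 arrays 11 do.

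Promoter sequence was read for the members that vary together, to show what stands before their start sites. RefSeq's promoter table (GRCm38.p6) held 15 of the 32 genes, with 21 start sites, and had no entry for Pecam1, Cdh5, Esam, Icam2, Ptprb, Cd93, Mmrn2, Ecscr, Arhgef15, Fli1, Ets1, Sox7, Sox17, Sox18, Nos3, Vwf and Plvap. The 250 bases upstream of the most upstream start listed are given for the 4 genes of the 15 that followed the rest most closely and for the 1 that followed it least, Lyl1. Capitals mark matches to CNGGAAG, a core that ETS factors bind, on either strand.
Egfl7 (chr2:26580833-26581082, + strand): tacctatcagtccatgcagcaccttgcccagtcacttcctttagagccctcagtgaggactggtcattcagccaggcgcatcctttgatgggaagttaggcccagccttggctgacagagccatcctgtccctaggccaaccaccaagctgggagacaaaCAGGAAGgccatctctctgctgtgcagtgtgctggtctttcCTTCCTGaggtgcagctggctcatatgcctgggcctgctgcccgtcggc
She (chr3:89831120-89831369, + strand): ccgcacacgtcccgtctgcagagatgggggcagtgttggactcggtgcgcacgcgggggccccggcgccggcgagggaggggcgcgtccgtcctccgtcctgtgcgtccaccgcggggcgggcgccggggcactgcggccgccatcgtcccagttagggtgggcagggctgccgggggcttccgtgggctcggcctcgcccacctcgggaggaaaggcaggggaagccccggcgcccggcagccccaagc
Erg (chr16:95586594-95586843, - strand): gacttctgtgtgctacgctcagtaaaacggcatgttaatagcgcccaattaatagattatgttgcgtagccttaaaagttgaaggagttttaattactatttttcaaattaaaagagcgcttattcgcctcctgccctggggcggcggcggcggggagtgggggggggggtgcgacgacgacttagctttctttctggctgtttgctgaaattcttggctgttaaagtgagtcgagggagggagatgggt
Rasip1 (chr7:45627287-45627536, + strand): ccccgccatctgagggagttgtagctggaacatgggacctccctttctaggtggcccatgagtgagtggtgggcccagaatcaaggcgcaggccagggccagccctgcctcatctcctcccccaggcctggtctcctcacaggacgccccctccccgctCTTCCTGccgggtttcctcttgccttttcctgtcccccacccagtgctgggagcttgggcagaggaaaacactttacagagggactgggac
Lyl1 (chr8:84701207-84701456, + strand): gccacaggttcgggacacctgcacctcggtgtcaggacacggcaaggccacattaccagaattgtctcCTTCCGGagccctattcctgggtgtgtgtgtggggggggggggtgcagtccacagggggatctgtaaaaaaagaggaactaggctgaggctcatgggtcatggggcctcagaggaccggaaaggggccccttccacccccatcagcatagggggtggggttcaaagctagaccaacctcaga

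The windows shown did not order by matches. Egfl7 held 2 matches, Rasip1 and Lyl1 1 each, and She and the Erg start shown held 0. Over all 21 start sites, 14 windows held a match (66.7%), beside 26.6% of the 32851 promoter windows of the table, and 13 of the 15 genes had at least 1. The SOX core ACAAT, searched on both strands, was in 7 of the 21 windows (33.3%, beside 27.7% of all), and the GATA core GATAA in 5 (23.8%, beside 22.6%). The letters were settled with these counts in view, and a match describes the sequence only.

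The mean of endothelial genes outside the set was low in control 3 and VEGF 3 too, though not every gene was. Of 30 such genes 28 were measured, and their mean was 0.024, 0.11, -0.097 and 0.019 in control arrays 1 to 4 and 0.026, 0.017, -0.18 and 0.037 in VEGF-labelled arrays 1 to 4. The median difference of the 28 was -0.038, with 7 above control and 21 below, which is 25% above, beside 43.3% of all genes. None passed over all genes. At an unadjusted limma p under 0.05 2 were higher and 2 lower, beside 4.62% and 7.84% of all genes. The VEGF receptor genes Kdr and Flt1 differed by -0.016 and 0.020, the angiopoietin receptor gene Tek by -0.00091, its relative Tie1 by -0.11, and the tight junction gene Cldn5 by -0.24 with an SE of 0.138 (limma, adjusted p = 0.526). The largest departures by unadjusted p were Mfsd2a, a lipid transporter of the blood-brain barrier, at -0.20 (limma, adjusted p = 0.261), the sphingosine receptor gene S1pr1, which neural cells also express, at 0.17 (adjusted p = 0.289), and the tip cell gene Esm1 at 0.22 (adjusted p = 0.293). Esm1 lay at 0.17, 0.31, 0.17 and -0.037 in the VEGF-labelled arrays and between -0.16 and 0.0097 in control, so 3 VEGF-labelled arrays lay above all control arrays and VEGF 4 lay among them. The mean of the pan-endothelial genes did not share that pattern, at 0.019, 0.023, -0.13 and 0.029 on those 4 arrays. Their member Plvap did, though narrowly, at 0.015, 0.015, 0.022 and -0.051 there and between -0.19 and 0.0051 in control. In the other endothelial list Angpt2 and Apln, named after their values were seen, also had VEGF 1 to 3 above all control arrays. VEGF 4 lay below all control arrays in both. Angpt2 lay at 0.25, 0.345, 0.072 and -0.17, with a highest control value of 0.0078. Apln lay at 0.38, 0.33, 0.14 and -0.34, with a highest control value of 0.0425. Neither passed (limma, adjusted p = 0.498 and 0.667). Of the 28 genes, 19 had an r above 0.5 with the mean of the pan-endothelial genes, beside 20.4% of all other genes. The lowest r was that of S1pr1, at -0.357. Apln, Esm1 and Angpt2 were also under 0.5, at -0.168, -0.011 and 0.123.

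The means of the pericyte and meningeal lists were low on the same 2 arrays, though not every gene in them was. The 15 pericyte and smooth muscle genes had a mean of -0.13 in control 3 and -0.21 in VEGF 3 and between -0.0060 and 0.072 elsewhere. The 11 meningeal fibroblast genes had a mean of -0.23 in control 3 and -0.45 in VEGF 3 and between -0.027 and 0.16 elsewhere. For both means, as for the endothelial ones, the 2 arrays were the lowest of the 8. Over the 8 arrays 9 of 15 pericyte genes and 10 of 11 meningeal genes had an r above 0.5 with the mean of the 32 genes, beside 20.4% of all other genes. The smooth muscle genes Acta2, Tagln, Myh11 and Cnn1 were under 0.5, at 0.170, 0.230, 0.228 and -0.241. So were Cspg4 at 0.119, Notch3 at -0.562 and, in the meningeal list, Crabp2 at -0.116. The part of vessel-associated or meningeal tissue in the endothelial values was not tested. With the meningeal mean as a covariate, added after seeing the data, the median difference of the 32 genes was -0.0058. Between the groups the pericyte list had a median difference of -0.011 and the meningeal list of 0.030, with no gene of either past the test. Slc6a13, a transporter gene of meningeal cells, differed by -0.49 and Crabp2 and Col1a1 by 0.21 and 0.15, while the pericyte list's smallest p belonged to Notch3, Tagln and Vtn, at 0.10, 0.15 and -0.38, and none of them passed.

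Of the 12 erythroid genes 0 had an r above 0.5 with the mean of the 32 genes, beside 20.4% of all other genes. Some macrophage and platelet genes did. The mean of the 12 measured erythroid genes was highest in VEGF 1, at 0.57, and VEGF 3, at 0.22, and lay between -0.14 and 0.070 elsewhere, so VEGF 3 was low for endothelium and high for red cells. Alas2, the first heme enzyme of red cells, differed by 0.83, the embryonic globin gene Hbb-y by 0.44 and the blood group gene Rhd by 0.22, and none passed over all genes (limma, adjusted p = 0.293, 0.339 and 0.399). The 15 leukocyte and macrophage genes, a source that would bear on Cd34, Fli1, Ets1 and Lyl1, had means between -0.11 in control 4 and 0.14 in VEGF 4 and -0.024 and -0.083 in control 3 and VEGF 3. Their complement genes C1qb and C1qc and the receptor gene Fcer1g differed by 0.20, 0.21 and 0.14 and did not pass. Of the 15, 3 had an r above 0.5 with the mean of the 32 genes (median over the list 0.305), which is near the share of all other genes. These were the macrophage and lymphatic receptor genes Lyve1 at 0.780 and Mrc1 at 0.720 and the integrin gene Itgam at 0.539. Lyve1 lay at -0.26 in control 3 and -0.71 in VEGF 3, and Mrc1 at -0.22 and -0.41. They are named after their values were seen, and the part of these cells in the endothelial values was not tested. Of the 10 platelet genes 6 were measured, and their mean was 0.22 in VEGF 1 and between -0.065 and 0.082 elsewhere, with Ppbp at 0.31, Gp9 at 0.098 and Pf4 at -0.14 between the groups. Pf4 had an r of 0.855 and Gp5 of 0.639 with the mean of the 32 genes, and the other 4 were under 0.5. Vwf, which platelets share, lay at 0.037 in VEGF 1. Because levels are centred, whether any marker was near absent cannot be read.

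**Figure D5:**
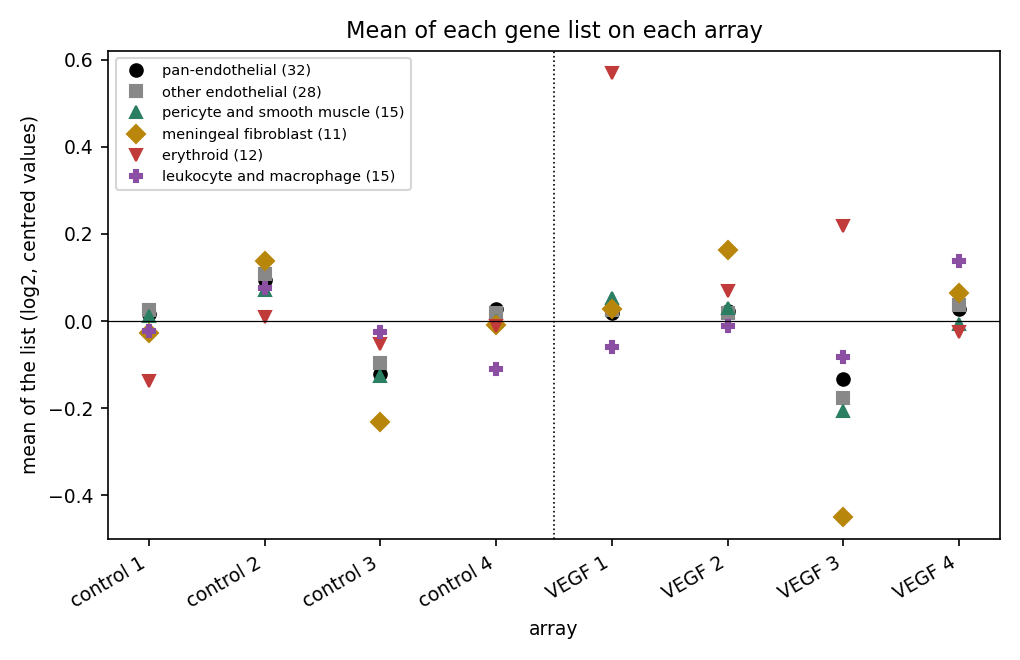
Mean of each gene list (y axis, centred log2) on each of the 8 arrays (x axis), with the number of genes in brackets. The pan-endothelial, other endothelial, pericyte and meningeal means are lowest in control 3 and VEGF 3, at -0.12 and -0.13 for the pan-endothelial genes, while the erythroid mean is highest in VEGF 1, at 0.57.

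Neighbouring brain regions were read as well. The 9 thalamus and hippocampus genes had means of -0.35, 0.28, -0.19 and -0.34 in control arrays 1 to 4. On VEGF-labelled arrays 1 to 4 their means were 0.72, 0.64, 0.12 and -0.24. Of the 9, 8 lay above control and 1 below, with a median difference of 0.43. Lef1, Zbtb20 and Calb2 differed by 0.36, -0.24 and 0.36. An r above 0.5 with the mean of the 32 genes was reached by 0 of the 9, beside 20.4% of all other genes. With the mean of these 9 genes as a covariate, 27 of the 32 pan-endothelial genes lay below control and 5 above. Their median was -0.045, beside -0.021 over all genes, and none passed. The share of all genes below control in that fit was not counted. The mean of the 9 itself differed by 0.46 between the groups, so that fit cannot fully separate the 2. The 7 measured choroid plexus genes had means between -0.17 in VEGF 4 and 0.24 in control 2, with Aqp1 at -0.17, Folr1 at -0.14 and Otx2 at 0.40 between the groups. Of these 7, 6 had an r above 0.5 with the mean of the 32 genes (median 0.638), beside 20.4% of all other genes. Among them were Msx1 at 0.943, Ttr at 0.789 and Aqp1 at 0.741. The part of choroid plexus tissue in the endothelial values was not tested.

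The genes most like the pan-endothelial mean over the 8 arrays, among all genes outside the set and leaving out predicted ones, were Arhgap23 (r = 0.976), Igf2 (0.968), Slc16a12 (0.963), Pcolce (0.963), Slc7a8 (0.962), Tmem252 (0.956), Zmym3 (0.956), Pear1 (0.955), Ckmt1 (0.951) and Gne (0.950). Igf2, an insulin-like growth factor gene expressed in meninges and vessels, lay at -0.23 in control 3 and -0.36 in VEGF 3. Pcolce, a collagen-processing enhancer, lay at -0.26 and -0.36 on the same arrays. Arhgap23 lay at -0.16 and -0.24. All 10 were lowest in those 2 arrays, and their differences between the groups lay between -0.10 and -0.0056. Both follow from how the 10 were picked. The mean they were matched to is itself lowest on those arrays and differs little between the groups.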

How the data were processed

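Total RNA of brain cortex was hybridised to 8 Affymetrix arrays, from 120 ng per sample, per the labels' protocols. The authors deposited values for 28853 probe sets, read as log2 from their range because the logarithm's base is unstated. Each probe set's median over the arrays is within 5e-07 of 0. Per the submitters' processing notes Affymetrix Expression Console and the mouse build mm8 were used; how background was corrected and probes were summarised was not stated. Of the probe sets 21789 had 1 gene symbol, updated through Entrez identifiers, and probe sets of a gene were averaged. Groups were compared over all 19938 genes with limma 3.58.1 (R 4.3.3; lmFit and eBayes, no covariate, Benjamini-Hochberg adjustment, threshold 0.05), which was tested on simulated data. Replicate numbers were not taken as pairs. Deviations of same-numbered arrays correlated at 0.052, -0.13, 0.45 and 0.30 for numbers 1 to 4. Those of arrays with unlike numbers correlated between -0.42 and 0.52, and these values do not settle whether the numbers mark pairs. Whether same-numbered arrays share a source was not tested. The members and lists were chosen with earlier results of these data known. Values in every array are given for the 8 members of smallest p, the highest and lowest of each role, and Pecam1, Cdh5, Erg, Sox17, Sox18, Vwf and Plvap. Other lists are named by their 3 smallest p, beside Kdr, Flt1, Tek, Tie1 and Cldn5. Lists of other cell types were other endothelial, pericyte and smooth muscle, platelet, erythroid, leukocyte, meningeal, thalamus and hippocampus, and choroid plexus genes. Alternatives were a replicate block, array centring, quantile normalization, array weights, a robust prior, covariates, single probe sets, the methods' t-test and leaving out each array.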

Additional observations from a re-analysis of the deposited data

Results flagged for a closer look

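Of 102 groups of 4 arrays examined, 9 had 1 array far from the other 3 by Dixon's ratio, where chance gives about 1 in 20 groups. VEGF 3 was the low array for the mean of the 32 pan-endothelial genes, at -0.13 against 0.019 to 0.029 on the other VEGF-labelled arrays, for the mean of the other endothelial genes, at -0.18 against 0.017 to 0.037, and for Rasip1, at -0.30 against -0.018 to 0.039. Control 3 was the low array for Emcn, at -0.26, for Adgrl4, at -0.29, and for the receptor gene Tie1, at -0.22. VEGF 4 stood above its group for Sox18, at 0.11 against -0.028 to -0.015, and below it for Plvap, at -0.051 against 0.015 to 0.022. Control 4 stood above its group for Flt1, at 0.079 against -0.021 to -0.020.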

How the results depend on the processing

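No member passed an adjusted p of 0.05 under any of the 22 alternatives, with a lowest adjusted p of 0.153. Over all genes 0 passed, except that leaving out single arrays gave between 0 and 10, the 10 without VEGF 4. Genes at an unadjusted limma p under 0.05 numbered 2484, 1583 with arrays of male pattern alone (added after seeing the data) and between 1526 and 2881 without single arrays. The methods' t-test gave 2114 at its unadjusted threshold and 0 after adjustment. Members at an unadjusted p under 0.05 numbered 1, Sox7, and 2 with the replicate block, with the other endothelial mean or the meningeal mean as a covariate, without both replicates numbered 3 and on arrays of male pattern, the latter 4 added after seeing the data. Without single arrays they numbered 1 or 2, Mmrn2 joining without control 3 and Lyl1 without VEGF 4. Sox7 was among them in all 22. The median difference of the members had no stable sign, from -0.066 without control 3 to 0.020 with the other endothelial mean as a covariate; it was 0.0066 after quantile normalization, 0.013 with the sex index, 0.014 without control 2 and 0.018 without VEGF 3. Of the 32 members 11 kept their sign in all 22. The median pairwise r was 0.153 without both replicates numbered 3, between 0.501 and 0.654 without single arrays and 0.052 with the replicate block, beside 0.038 over all pairs of genes, which removes what same-numbered arrays share. Deviations of same-numbered arrays correlated at 0.052, -0.13, 0.45 and 0.30 for numbers 1 to 4, and those of unlike-numbered arrays between -0.42 and 0.52. The numbers were not taken as pairs, which these values do not settle. The block gave 2649 genes at an unadjusted limma p under 0.05. Centred values keep no signal over background, so dim probe sets could not be left out.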
